A study of Mus musculus with 59 samples.

Results

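The genes described here are 48 genes of mitosis and the spindle, taken by symbol from the 55421 rows of the gene table and from the intron table of the same tumors, over all 59 primary mammary tumors of the study. All 48 symbols were found in both tables. RNA was sequenced from flash-frozen tumor tissue of PyMT (+/-) mice on the B6.FVB-Tg(MMTV-PyVT)634Mul/LellJ background, in which the mouse mammary tumor virus promoter drives the polyoma middle T oncogene in mammary epithelium. The groups are vehicle (19 tumors), methylparaben (20 tumors) and propylparaben (20 tumors), and all of them carry the transgene. Both agents are preservatives, esters of para-hydroxybenzoic acid that carry a methyl or a propyl group, and the title of the series names a long exposure at low levels. Dose, exposure time, age and the animal behind each tumor are not in the labels used here, so the p-values reflect only the spread among these samples, which could in part be technical. Each tumor was treated as independent. If some came from the same animal, the p-values could be too small. Tumors are numbered within a group in the order of their records.

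Mitosis is driven by cyclin-dependent kinase 1 with its A and B cyclins, helped by the polo-like and Aurora kinases, and it builds a bipolar spindle of microtubules that motors and crosslinkers shape. Kinetochores tie the chromosomes to that spindle, the spindle checkpoint holds cells until every chromosome is attached, and the anaphase-promoting complex then removes cyclins and securin so that sister chromatids part. Most of the RNAs for these proteins are made only late in the cell cycle, and their summed level in a tissue is widely used as a readout of how many cells are dividing. In bulk tumor RNA, fewer dividing cells and less RNA per dividing cell cannot be told apart.

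Promoters of such genes are known for CCAAT boxes, bound by NF-Y, and for the cell cycle genes homology region (CHR), bound by the DREAM and B-MYB complexes, a little downstream of them. RefSeq windows (build GRCm38.p6, 250 bases before to 50 bases after the annotated start) were present for 41 of the 48 genes, in 44 windows. The letters searched were TTTGAA and TTCGAA for the CHR and CCAAT for the box, each on both strands, and matches of different motifs can share letters at their ends. CHR letters were in 72.7% of the 44 windows and in 19.2% of all 32851 windows of the table. CCAAT letters were in 77.3% and 37.4%, and both kinds together in 65.9% and 7.52%. A match describes letters, not a bound site. The 9 stretches below, from 110 bases before to 30 bases after the start, show genes with both kinds of letters (Ccnb2, Cdk1, Bub1, Cdc20, Prc1, Kif23), a gene with a near-identical copy elsewhere (Kifc1), a gene with boxes alone (Ccnb1) and the gene that followed the rest least across tumors (Pttg1, no match). Capitals mark the CCAAT and CHR letters in either orientation.
Ccnb2: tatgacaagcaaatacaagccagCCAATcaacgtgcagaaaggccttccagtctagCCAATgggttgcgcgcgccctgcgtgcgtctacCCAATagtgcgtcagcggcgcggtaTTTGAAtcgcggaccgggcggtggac
Cdk1: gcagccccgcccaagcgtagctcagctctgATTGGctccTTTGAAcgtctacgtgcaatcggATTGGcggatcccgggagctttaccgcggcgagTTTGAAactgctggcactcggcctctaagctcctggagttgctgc
Bub1: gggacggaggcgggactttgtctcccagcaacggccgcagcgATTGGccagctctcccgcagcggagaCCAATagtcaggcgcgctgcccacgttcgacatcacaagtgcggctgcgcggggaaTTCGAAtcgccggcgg
Cdc20: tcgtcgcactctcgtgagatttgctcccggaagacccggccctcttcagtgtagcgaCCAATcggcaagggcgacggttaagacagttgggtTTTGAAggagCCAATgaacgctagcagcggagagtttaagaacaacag
Prc1: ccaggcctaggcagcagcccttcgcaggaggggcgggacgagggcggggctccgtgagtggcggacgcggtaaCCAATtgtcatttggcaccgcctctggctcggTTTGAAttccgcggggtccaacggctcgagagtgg
Kif23: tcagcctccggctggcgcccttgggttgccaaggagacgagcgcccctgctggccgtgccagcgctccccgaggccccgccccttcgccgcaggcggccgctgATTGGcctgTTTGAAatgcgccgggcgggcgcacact
Kifc1: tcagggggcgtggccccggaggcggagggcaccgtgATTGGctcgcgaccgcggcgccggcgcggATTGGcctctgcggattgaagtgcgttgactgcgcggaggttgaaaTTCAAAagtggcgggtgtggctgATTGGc
Ccnb1: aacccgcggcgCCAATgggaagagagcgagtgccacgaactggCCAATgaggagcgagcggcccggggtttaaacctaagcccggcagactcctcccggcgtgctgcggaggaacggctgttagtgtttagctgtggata
Pttg1: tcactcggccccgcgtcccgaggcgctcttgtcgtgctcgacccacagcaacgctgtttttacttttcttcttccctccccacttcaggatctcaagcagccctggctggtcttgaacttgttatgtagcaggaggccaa
These stretches lie at Ccnb2 chr9:70421525-70421664, minus strand, Cdk1 chr10:69352883-69353022, minus strand, Bub1 chr2:127831830-127831969, minus strand, Cdc20 chr4:118437314-118437453, minus strand, Prc1 chr7:80294341-80294480, plus strand, Kif23 chr9:61946770-61946909, minus strand, Kifc1 chr17:33890604-33890743, minus strand, Ccnb1 chr13:100786457-100786596, minus strand, Pttg1 chr11:43425952-43426091, minus strand.

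In Ccnb2 the 3 CCAAT boxes precede a CHR that starts 5 bases past the annotated start, and in Bub1 the CHR starts at base 15. A further CHR of Ccnb2 starts at base -167, upstream of its boxes and outside the printed stretch. Cdk1 and Cdc20 carry their nearest CHR 15 and 18 bases before the start, but Cdk1 has a further CHR between its boxes and Cdc20 a box after its CHR. GENCODE M21 puts the start of Pttg1 at chr11:43426251, upstream of its whole RefSeq window, so the letters around that start were not searched. No window of Melk, Mad2l1, Nuf2, Birc5, Nusap1, Pttg1 or Arhgef39 held either kind of letters, 7 of the 41 genes, which says only that these letters are not in those windows. Among 107 other mitosis genes with a window, 29.9% had both kinds of letters against 65.9% of the 41.

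**Figure D1:**
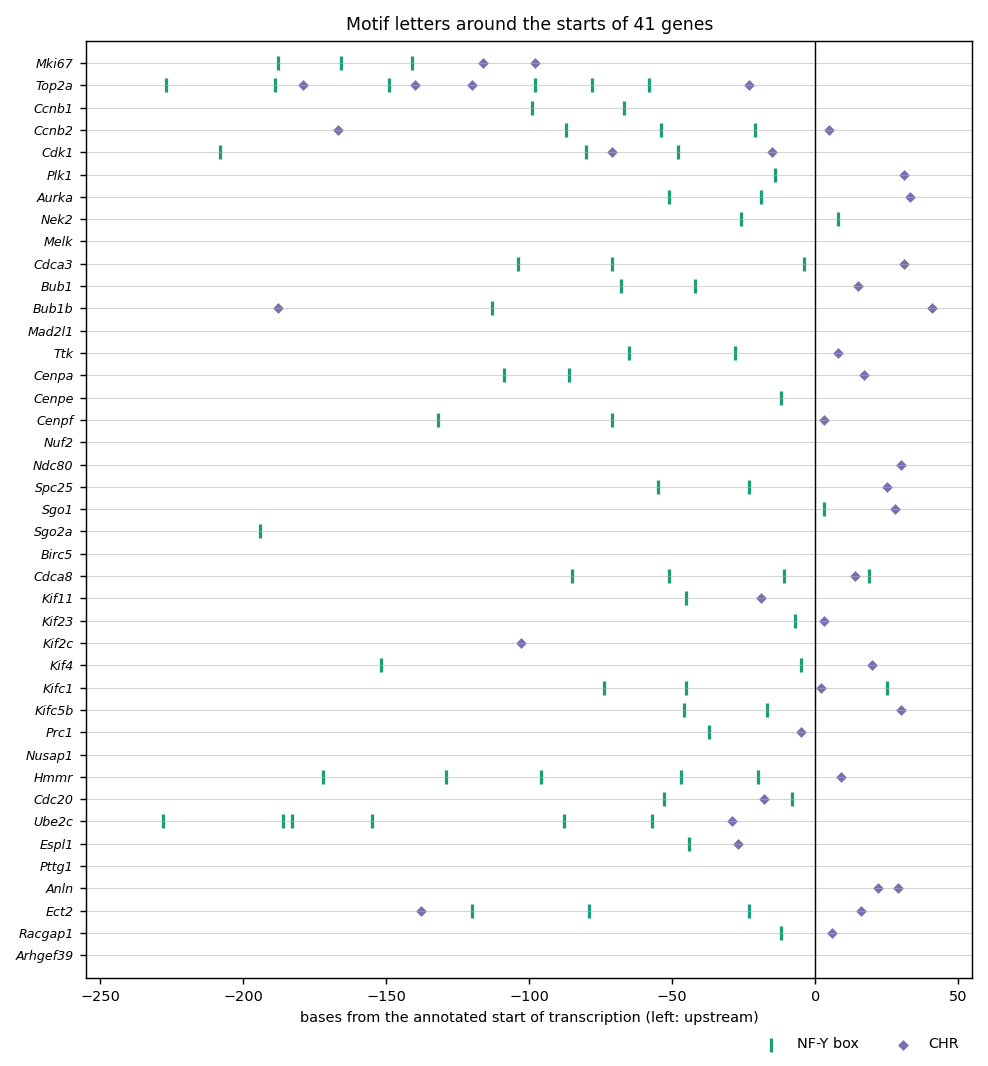
Position of CHR letters (diamonds) and CCAAT letters (NF-Y box, bars) in bases from the annotated start for the 41 genes with a RefSeq window, 1 window per gene. Most diamonds lie between 30 bases before and 41 bases after the start, with bars mostly to their left, and 7 genes have neither.

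The libraries held 1166502 to 2032789 reads on genes, and the 48 genes took 0.0909 to 0.515% of them, 1156 to 9179 reads. The deposited values are normalized counts, reads scaled by library size and by a further factor per library. All 10 tumor epithelium markers (keratins, Epcam, claudins and others) were detected, with a summed level of 1370 to 2593 over the 59 tumors. Some libraries were later left out as sets. On the first principal component of all genes the 7 lowest libraries were vehicle tumors 7, 8, 10, 13, 14 and 19 and propylparaben tumor 1. The sign of this component was set so that its low end is where the 48 genes are high. The 7 had summed levels of the 48 genes of 2121 to 3537, against 768 to 2449 in the other tumors, a direction fixed by that choice. No gap sets the 7 apart (vehicle tumor 13 at -36.3, vehicle tumor 1, not among them, at -31.8). Summed fibroblast markers of the 7 had a median of 915 against 2474, macrophage markers 472 against 927, and adipocyte markers 85.3 against 369. Another 5 libraries (vehicle tumors 1 and 2, methylparaben tumors 1, 5 and 16) had a scaling factor under 0.9. Methylparaben tumor 5 was also the highest on the first principal component (56.3, next propylparaben tumor 14 at 32.5). It had 11.5% mitochondrial reads, against a median of 3.53% over the 59 libraries.

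Against vehicle, 7 of the 48 genes fell with methylparaben and none with propylparaben. The 7 were the cyclins Ccna2 and Ccnb1, the cohesin guardian Sgo1, the motors Kif23 and Kifc5b, the spindle crosslinker Prc1 and the guanine nucleotide exchange factor Arhgef39, by 0.49 to 0.79 on the log2 scale. Of all 14487 genes tested, 1.32% were called in this comparison and 0.635% were called lower (limma, adjusted p under 0.05 by the Benjamini-Hochberg method over all genes). All 48 log2 differences were below 0, from -0.79 to -0.12 with a median of -0.46, while 48.8% of all genes were below 0 and their median was 0.01. An unadjusted p under 0.05 was reached by 45 of the 48, all lower, against 10.3% of all genes that were lower at that p. Most of the 48 rise and fall together across tumors, with a median correlation of 0.87 of a gene with the mean of the others. Such counts, here and with propylparaben, are therefore not separate observations. The 48 were also chosen with earlier results of these data known. Differences are on the log2(value + 1) scale, which understates the change of genes with low values.

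With propylparaben 0 of the 48 genes passed in limma, where 0.0276% of all genes did. At an unadjusted p under 0.05, 34 of the 48 were lower, against 9.49% of all genes. On recovered reads edgeR called 1 (Kifc5b) and DESeq2 called 2 (Kif23 and Kifc5b). The share of all genes called by these tools is not reported here. All 48 differences were again below 0, with a median of -0.39 and a range of -0.83 to -0.03, against 50.2% of all genes below 0. Both comparisons use the same 19 vehicle tumors. Setting the mean of both paraben groups against vehicle called 25 of the 48, all lower, with 6.79% of all genes called and 3.42% called lower. The 25 came from every role, 7 of 10 entry kinases and cyclins, 3 of 4 checkpoint genes, 4 of 8 kinetochore genes and 3 of 4 cytokinesis genes among them.

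The methyl and propyl esters were also compared directly. None of the 48 passed and 0% of all genes did in limma. An unadjusted p under 0.05 was reached by 0 of the 48 and by 2.15% of all genes, and edgeR and DESeq2 also called none of the 48. The median difference, propylparaben minus methylparaben, was 0.09, and 8 of the 48 were below 0, against 53.4% of all genes. Arhgef39 had the largest difference, 0.31 with a 95% confidence interval of -0.03 to 0.64. Over the 48 genes the intervals ran from -0.48 (Cdc25c) to 0.64 (Arhgef39), so single genes could differ between the esters by up to these amounts. Doses of the esters are not in the labels.

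**Figure D2:**
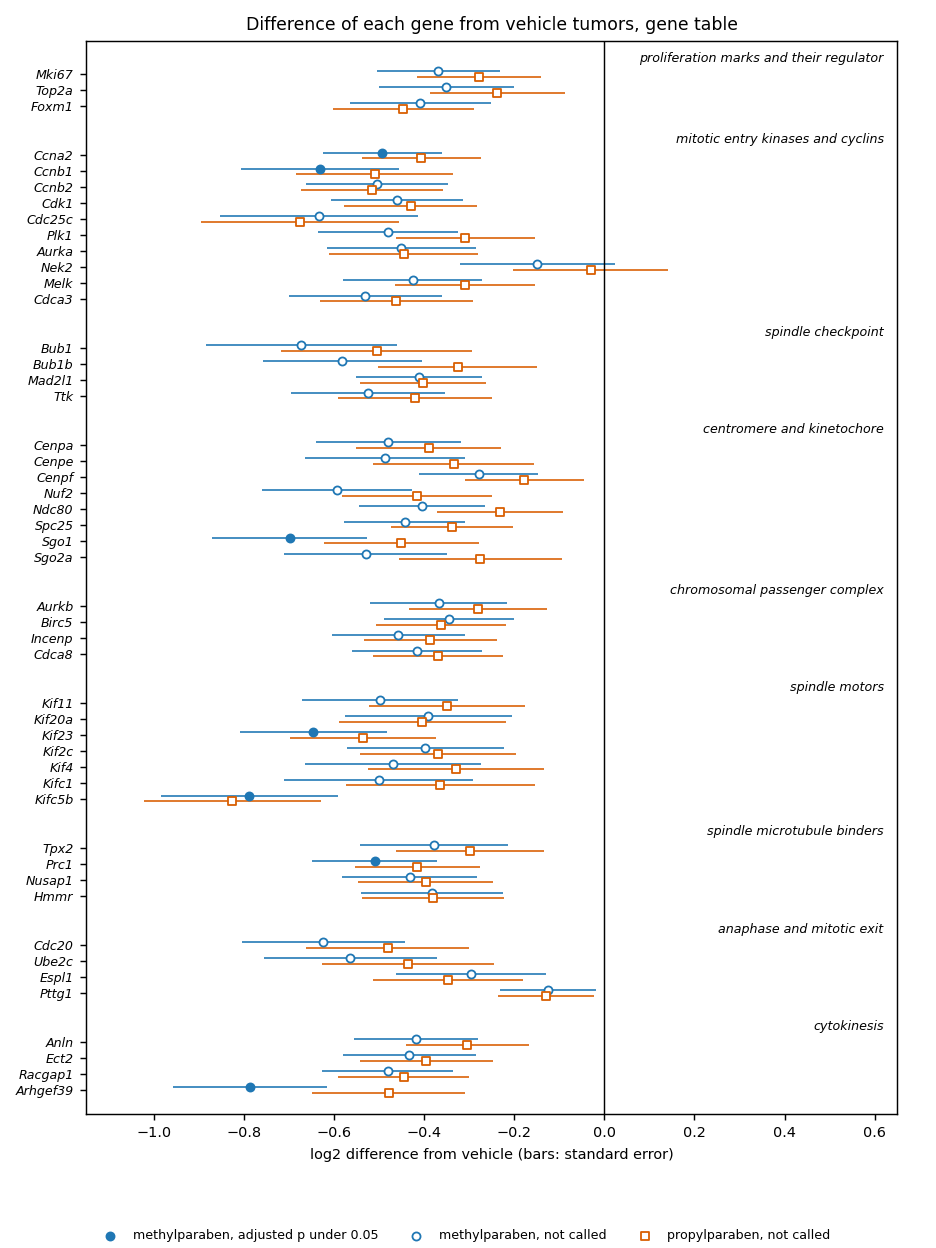
Difference from vehicle of each of the 48 genes on the log2(value + 1) scale, by role, for methylparaben (circles) and propylparaben (squares), with standard errors (vehicle n = 19, parabens n = 20 each). Filled symbols passed an adjusted p of 0.05 and are the 7 genes named in the text, and all symbols lie left of 0, with Nek2 and Pttg1 closest to it.

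The number of calls changed with the libraries kept and with the model fitted. With methylparaben no gene of the 48 passed without vehicle tumor 8, 10 or 14, or without the 5 libraries of low scaling factor. None passed without the 7 libraries at the low end of the first principal component, a cut made where there is no gap. None passed with 6 tissue scores as covariates or when only the groups compared were fitted. By contrast, 29 passed without vehicle tumor 5, 25 in edgeR and 30 in DESeq2. Without the 7 libraries 47 of the 48 were still below 0 with methylparaben and 46 with propylparaben, with medians of -0.20 and -0.17, and the mean of both parabens called 0.

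Most markers of fibroblasts, adipocytes, macrophages, endothelium and skeletal muscle lay above 0 where the 48 genes lay below it. No marker of any list passed with a single ester. Against the mean of both, 2 of 10 fibroblast, 2 of 10 endothelial, 1 of 10 macrophage and 1 of 10 tumor epithelium markers passed, all of them higher, and none of the other lists. Of all genes 6.79% were called in that comparison, so these few passes do not single out the markers. The part of these cells in the result was not tested. Of 10 fibroblast markers 10 were above 0 with methylparaben (median log2 difference 0.51), and 9 with propylparaben (0.57). Of 10 adipocyte markers all were above 0 with either ester (1.22 and 0.87), as were the 10 skeletal muscle markers (1.21 and 0.79). Macrophage markers had medians of 0.23 and 0.23, endothelial markers 0.22 and 0.26, tumor epithelium markers 0.06 and 0.06, T cell markers 0.01 and -0.04, and B cell markers 0.11 and 0.24. Summed fibroblast markers ranged from 370 to 4715 in vehicle, 1293 to 4535 in methylparaben and 834 to 5415 in propylparaben. Summed adipocyte markers ranged from 53.4 to 622, 95.9 to 11062 and 86.5 to 3010 in the same order, skeletal muscle markers from 4.71 to 895, 1.86 to 8136 and 2.30 to 788, and macrophage markers from 256 to 1236, 621 to 1368 and 513 to 1222. Only 5 of 10 T cell and 5 of 10 B cell markers were detected at a mean of at least 1, with Cd79a at 0 in every vehicle and methylparaben tumor. With the 6 tissue scores as covariates the medians of the 48 genes were -0.20 and -0.17.

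Mki67, the nuclear protein behind the Ki-67 proliferation stain, ranged from 27.3 to 134 (median 67.5) in vehicle, 38.8 to 75.9 (median 50.8) in methylparaben and 31.2 to 120 (median 55.9) in propylparaben. The ranges overlapped, with 17 of 20 methylparaben and 14 of 20 propylparaben tumors below the vehicle median. Its log2 differences were -0.37 ± 0.14 (SE, adjusted p = 0.103) and -0.28 ± 0.14 (adjusted p = 0.263) in limma. Top2a, the topoisomerase that untangles chromosomes, ranged from 113 to 529 (median 236) in vehicle, 109 to 450 (median 185) in methylparaben and 124 to 489 (median 230) in propylparaben. Its differences were -0.35 ± 0.15 and -0.24 ± 0.15 (adjusted p = 0.155 and 0.393). Foxm1, the transcription factor of many late cell cycle genes, had medians of 14.7, 10.9 and 9.88, differences of -0.41 and -0.45, and adjusted p of 0.114 and 0.123. None of these 3 passed against either ester alone, and Foxm1 passed against the mean of both (adjusted p = 0.0449).

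Among the 10 entry kinases and cyclins the 2 that fell with methylparaben were cyclins. Ccna2 (cyclin A2, GRCm38 chr3:36564865-36572150) ranged from 36.2 to 114 (median 64.3) in vehicle, 26.6 to 78.9 (median 42.7) in methylparaben and 29.7 to 92.6 (median 50.5) in propylparaben. It lay below the vehicle median in 18 of 20 methylparaben and 16 of 20 propylparaben tumors. The difference was -0.49 ± 0.13 (adjusted p = 0.0456) with methylparaben and -0.41 ± 0.13 (adjusted p = 0.106) with propylparaben. Ccnb1 (cyclin B1, chr13:100778650-100786570), which activates Cdk1 at mitotic entry, ranged from 14.8 to 59.6 (median 29.6), 5.98 to 31.2 (median 19.7) and 7.61 to 47.6 (median 20.1) in the same order of groups. Only 2 of 20 methylparaben tumors were above the vehicle median. Its differences were -0.63 ± 0.17 (adjusted p = 0.0492) and -0.51 ± 0.17 (adjusted p = 0.116). Its 50-base transcript stretches were shared with processed copies, Ccnb1-ps among them, for 23.4%, which makes the assignment of its reads uncertain.

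The kinases of this role did not pass with either ester alone. Plk1, the polo-like kinase, ranged from 46.2 to 174 (median 93.2) in vehicle, 35.2 to 125 (median 67.1) in methylparaben and 38.0 to 154 (median 74.8) in propylparaben. Its differences were -0.48 ± 0.16 and -0.31 ± 0.16, with adjusted p of 0.0719 and 0.275. Aurka, the centrosomal Aurora kinase, ranged from 10.1 to 58.2 (median 24.1), 7.97 to 28.8 (median 16.9) and 8.68 to 40.95 (median 15.6). Its highest vehicle tumors lay above every paraben tumor, and its differences were -0.45 ± 0.17 with either ester (adjusted p = 0.101 and 0.145). Cdk1, Ccnb2 (cyclin B2), Cdc25c (the phosphatase that activates Cdk1), Melk (a cell cycle kinase) and Cdca3 had differences of -0.63 to -0.43 with methylparaben. Cdc25c had the largest of these, -0.63 ± 0.22, at a low level with vehicle tumors between 1.28 and 13.97. Nek2, a centrosome kinase, had the smallest difference of the role, -0.15 ± 0.17 (adjusted p = 0.648), with medians of 22.9, 17.9 and 20.4. Against the mean of both esters Ccna2, Ccnb1, Ccnb2, Cdk1, Cdc25c, Aurka and Cdca3 passed.

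None of the 4 checkpoint genes passed with a single ester. Bub1b (BubR1, which inhibits the anaphase-promoting complex) had the smallest p of the role with methylparaben. It ranged from 5.28 to 32.0 (median 16.3) in vehicle, 5.62 to 20.8 (median 9.42) in methylparaben and 5.07 to 30.7 (median 12.5) in propylparaben. The ranges overlapped, and 16 of 20 methylparaben tumors were below the vehicle median. Its differences were -0.58 ± 0.18 (adjusted p = 0.0610) and -0.33 ± 0.18 (adjusted p = 0.313). Mad2l1, which forms the checkpoint complex with Bub1b, had the largest p of the role, with a difference of -0.41 ± 0.14 (adjusted p = 0.0861) and medians of 40.04, 31.6 and 30.9. The kinases Bub1 and Ttk had differences of -0.67 and -0.52 with methylparaben, and Bub1, Mad2l1 and Ttk passed against the mean of both esters.

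Of the 8 centromere and kinetochore genes Sgo1 fell with methylparaben. Sgo1 (shugoshin, chr17:53674786-53689333) protects centromeric cohesin until anaphase. It ranged from 11.1 to 49.7 (median 23.7) in vehicle, 3.98 to 29.3 (median 15.0) in methylparaben and 7.90 to 34.3 (median 17.1) in propylparaben. A single methylparaben tumor, tumor 4, was above the vehicle median, while 7 of 20 propylparaben tumors were. Its differences were -0.70 ± 0.17 (adjusted p = 0.0355) and -0.45 ± 0.17 (adjusted p = 0.154). Nuf2, an arm of the Ndc80 complex that grips microtubules, just missed the threshold at -0.59 ± 0.17 (adjusted p = 0.0510), with all 20 methylparaben tumors below the vehicle median of 9.85. Spc25, of the same complex, also had all 20 below its vehicle median, with -0.44 ± 0.13 (adjusted p = 0.0605). Cenpf, a large kinetochore protein, had the largest p of the role, -0.28 ± 0.13 (adjusted p = 0.200), with medians of 67.3, 56.1 and 61.8. Cenpa (the centromeric histone), Cenpe (a kinetochore motor), Ndc80 and Sgo2a lay between -0.53 and -0.40, and Cenpa, Nuf2, Spc25 and Sgo1 passed against the mean of both esters.

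The 4 genes of the chromosomal passenger complex, which corrects faulty attachments, gave differences of -0.46 to -0.35 with methylparaben and none passed. Birc5 (survivin) ranged from 70.1 to 230 (median 124) in vehicle, 52.5 to 162 (median 95.4) in methylparaben and 52.1 to 211 (median 94.1) in propylparaben. All 3 ranges overlapped, with 17 and 16 of 20 paraben tumors below the vehicle median. Its differences were -0.35 ± 0.14 and -0.36 ± 0.14 (adjusted p = 0.148 and 0.168). Incenp, the scaffold, had the smallest p, -0.46 ± 0.15 (adjusted p = 0.0719), with medians of 36.4, 25.96 and 29.1. Aurkb, the kinase, and Cdca8 (borealin) had -0.37 and -0.42, and Incenp and Cdca8 passed against the mean of both esters.

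Of the 7 spindle motors Kif23 and Kifc5b fell with methylparaben. Kif23 (chr9:61915905-61946774), the kinesin of the central spindle, ranged from 12.8 to 67.0 (median 24.0) in vehicle, 9.96 to 32.7 (median 15.3) in methylparaben and 9.11 to 38.4 (median 16.6) in propylparaben. Its differences were -0.65 ± 0.16 (adjusted p = 0.0374) and -0.54 ± 0.16 (adjusted p = 0.0868). The lower part of the vehicle range overlapped both paraben groups, and 17 of 20 methylparaben tumors were below the vehicle median. Kifc5b (chr17:26917091-26932583), a minus-end kinesin, ranged from 3.85 to 19.9 (median 7.90), 0.994 to 13.5 (median 4.36) and 1.61 to 8.32 (median 3.93) in the 3 groups. With -0.79 ± 0.20 (adjusted p = 0.0371) and -0.83 ± 0.20 (adjusted p = 0.0610) it had the largest difference of the 48 genes for propylparaben, where 19 of 20 tumors were below the vehicle median. Kifc5b is a near copy of Kifc1: 37.4% of its 50-base transcript stretches were also found in transcripts of other genes, Kifc1 first, and 39.7% of those of Kifc1, so the split of reads between them is uncertain. Kifc1 was lower in level, 1.28 to 6.56 in vehicle, with -0.50 ± 0.21 (adjusted p = 0.148). Kif11, Kif20a, Kif2c and Kif4 had differences of -0.50 to -0.39 with methylparaben, with Kif20a at the largest p of the role (adjusted p = 0.202).

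Prc1, the crosslinker of antiparallel microtubules in the central spindle (chr7:80294450-80316259), was the microtubule binder that fell with methylparaben. It ranged from 34.3 to 109 (median 54.3) in vehicle, 21.2 to 73.9 (median 39.4) in methylparaben and 23.7 to 82.9 (median 42.1) in propylparaben. Methylparaben tumor 4 was the only one of its group above the vehicle median. Its differences were -0.51 ± 0.14 (adjusted p = 0.0488) and -0.41 ± 0.14 (adjusted p = 0.113). Nusap1, Hmmr and Tpx2, an activator of Aurka, did not pass, with -0.43, -0.38 and -0.38, and Tpx2 had the largest p (adjusted p = 0.164). Prc1 and Nusap1 passed against the mean of both esters.

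Of the 4 genes of anaphase and mitotic exit, none passed with a single ester. Cdc20, the activator of the anaphase-promoting complex, ranged from 8.96 to 53.4 (median 25.7) in vehicle, 9.30 to 31.9 (median 15.98) in methylparaben and 10.9 to 47.6 (median 16.1) in propylparaben. Its differences were -0.62 ± 0.18 (adjusted p = 0.0541) and -0.48 ± 0.18 (adjusted p = 0.147), and it passed against the mean of both (adjusted p = 0.0275). Ube2c, the ubiquitin-conjugating enzyme of that complex, had -0.56 and -0.44, and Espl1 (separase, which cuts cohesin) -0.30 and -0.35. Pttg1 (securin, the inhibitor of separase) had the smallest difference of the 48 with methylparaben, -0.12 ± 0.11 (adjusted p = 0.507), and -0.13 ± 0.11 with propylparaben (adjusted p = 0.525). Its values ranged from 22.0 to 51.2 (median 32.6), 17.3 to 79.0 (median 28.7) and 22.6 to 38.5 (median 29.5). The highest, 79.0, was in methylparaben tumor 5, the tumor with the lowest summed level of the 48 genes.

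Arhgef39, a guanine nucleotide exchange factor (chr4:43496142-43499695), had the smallest adjusted p of the 48 with methylparaben. It ranged from 8.56 to 31.4 (median 14.2) in vehicle, 2.66 to 14.8 (median 9.71) in methylparaben and 4.11 to 19.4 (median 10.8) in propylparaben. In methylparaben 19 of 20 tumors were below the vehicle median, and in propylparaben 13. Its differences were -0.79 ± 0.17 (adjusted p = 0.0239) and -0.48 ± 0.17 (adjusted p = 0.129). It passed in 56 of 59 fits that each left out a library, more often than the other 6 called genes, which passed in 20 (Ccnb1) to 48 (Sgo1). Anln, Ect2 and Racgap1, which build and place the contractile ring, had -0.42, -0.43 and -0.48 with methylparaben, and Ect2 and Racgap1 passed against the mean of both esters.

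**Figure D3:**
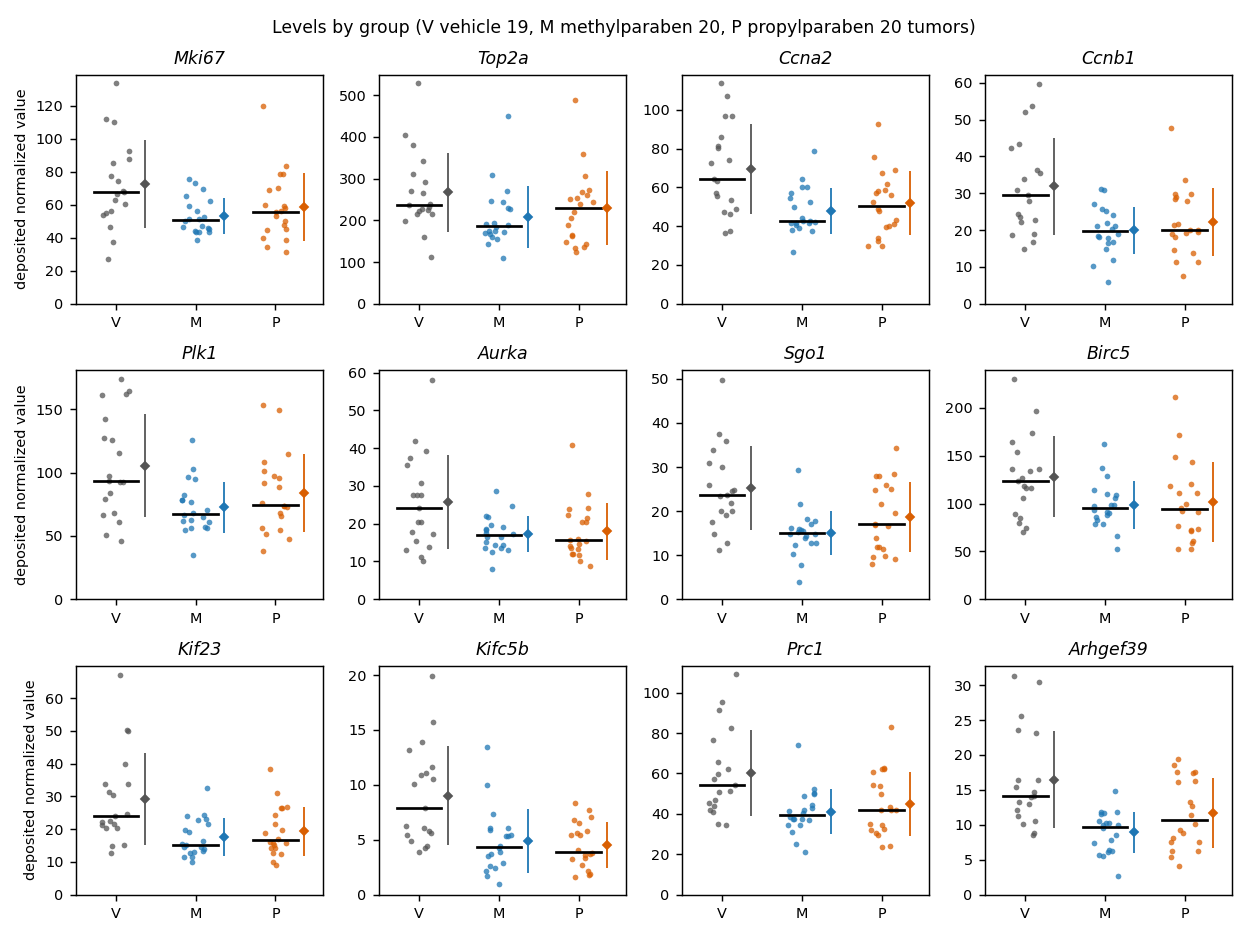
Deposited normalized values of 12 of the genes in each tumor (points), with the group median (line) and the mean ± SD (diamond), for vehicle (n = 19), methylparaben (n = 20) and propylparaben (n = 20). The groups overlap in every panel, the highest vehicle tumors lie above nearly all paraben tumors, and propylparaben tumor 1 is the high point of its group in most panels.

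Intronic reads were deposited as a separate table for the same genes, and how introns were defined is not given in the sources used here. Of the 48 genes 44 reached a mean of 1 in introns, all but Ccna2, Foxm1, Cdca3 and Arhgef39. With methylparaben 43 of the 44 were below 0, against 49.3% of all genes, with a median of -0.51, and none passed in limma, where 0% of all 14281 genes tested for introns did. At an unadjusted p under 0.05 there were 26, all lower, against 6.18% of all genes. The count in edgeR was 3, and its share of all genes is not reported here. Kif4, a chromosome-bound kinesin, had the smallest p. Its intronic values ranged from 12.1 to 45.5 (median 19.6) in vehicle, 3.01 to 25.01 (median 10.2) in methylparaben and 4.58 to 32.5 (median 14.7) in propylparaben, a difference of -0.998 ± 0.22 with methylparaben (adjusted p = 0.0564). The introns of Pttg1 were the only ones above 0, at 0.07 ± 0.21.

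With propylparaben 43 of the 44 were again below 0, against 49% of all genes, with a median of -0.45. None passed in limma, with 0% of all genes called, 20 were lower at an unadjusted p under 0.05, against 5.08% of all genes, and edgeR called none. Kifc5b introns had the smallest p, -0.93 ± 0.21 (adjusted p = 0.115). Its intronic values were 9.79 to 66.2 (median 30.2) in vehicle, 7.82 to 28.7 (median 17.6) in methylparaben and 4.71 to 40.8 (median 14.3) in propylparaben. All 20 methylparaben tumors and 19 of 20 propylparaben tumors were below the vehicle median there. Between the esters none of the 44 passed in limma, with 0% of all genes called, 0 of the 44 and 3.47% of all genes had an unadjusted p under 0.05, and edgeR called none.

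Whether exonic and intronic signal differed by unequal amounts was tested for the 23 genes with a mean of at least 10 in both tables. None passed in limma with either ester, with 0% of all 6667 genes called, and the medians were -0.01 and 0.00. At an unadjusted p under 0.05 there were 0 and 1 (Ndc80 with propylparaben), against 6.27% and 7.27% of all genes, and no other tool was run on this measure. The spread between tumors was tested as the distance of each tumor from its group median. None of the 48 passed with methylparaben (0.0345% of all genes did) or propylparaben (0%), with 5 and 1 lower at an unadjusted p under 0.05, against 8.75% and 7.61% of all genes. No other tool was run on it. In methylparaben the spread of 46 of the 48 was below that of vehicle, against 66% of all genes, and in propylparaben 30 of 48 against 68.1%.

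**Figure D4:**
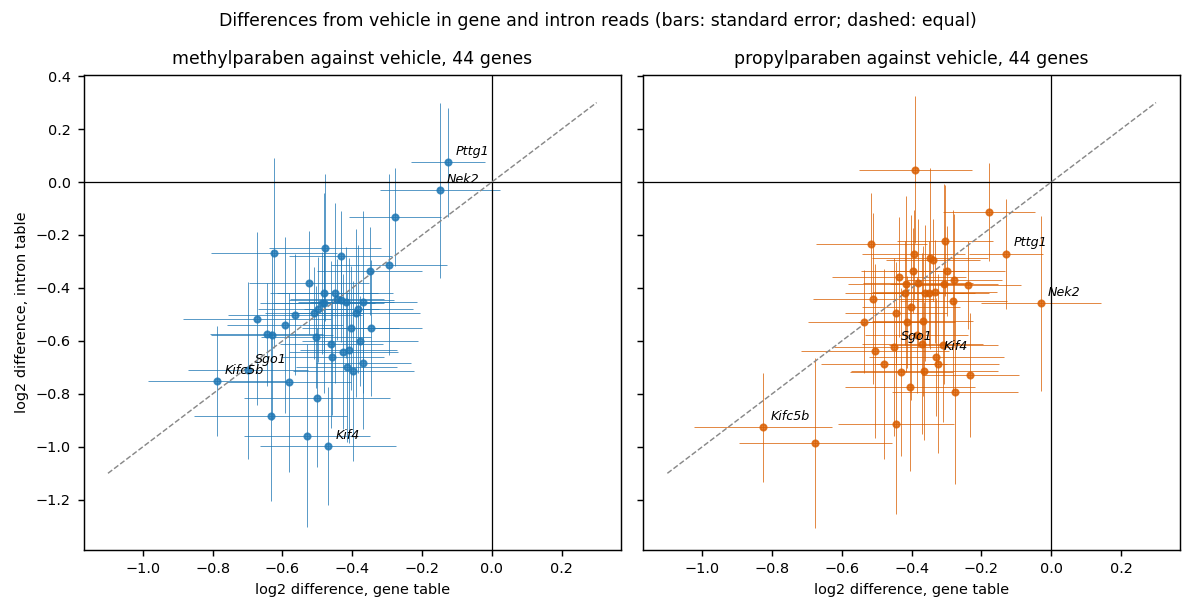
Log2 difference from vehicle in the gene table (x) and in the intron table (y) for the 44 genes tested in both, with standard errors. In either panel 43 of 44 points lie below 0 on the intron axis, Kifc5b is low on both axes, and Pttg1 and Nek2 lie nearest to 0 on the gene axis.

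The same tumors were high or low for most of the 48 genes. The summed level of the 48 ranged from 1014 to 3537 (median 1810) in vehicle, 768 to 2449 (median 1354) in methylparaben and 886 to 3171 (median 1488) in propylparaben. The groups overlapped from 1014 to 2449, and the 10 tumors with the highest sums were 7 vehicle, 1 methylparaben and 2 propylparaben tumors. Vehicle tumor 10 led (3537), followed by propylparaben tumor 1 (3171) and vehicle tumors 8, 7, 19 and 14. In each of these 6 tumors all 48 genes were above their median over the 59 tumors. At the other end methylparaben tumor 5 (768) had 1 gene above its median and propylparaben tumor 17 (886) had none. Intron sums gave the same leader, vehicle tumor 10 (2933), and the same lowest tumor, methylparaben tumor 5 (443), though the order between them differed.

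**Figure D5:**
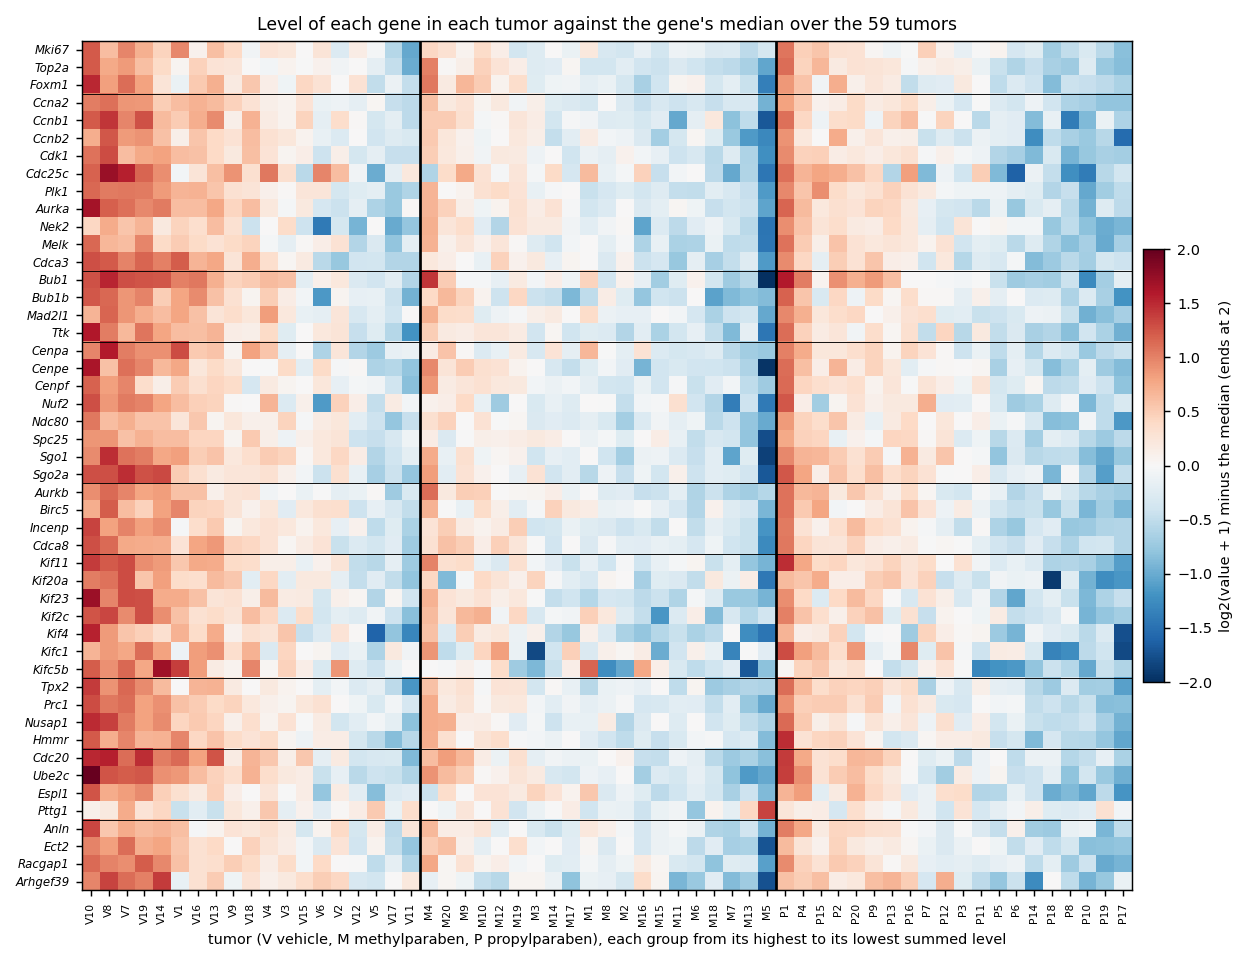
Level of the 48 genes (rows, by role) in the 59 tumors (columns, by group and then by summed level), as log2(value + 1) minus the median of the gene over all tumors, with colours ending at 2. Whole columns share a colour, as in vehicle tumor 10 and propylparaben tumor 1 (all 48 genes above their median) and methylparaben tumor 5, and the row of Pttg1 does not follow the others.

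After centring each group, the correlation of a gene with the mean of the other 47 over the 59 tumors had a median of 0.87 and ran from 0.94 (Ccna2) to -0.05 (Pttg1). These are descriptions, and the points share libraries and their scaling. Prc1, Kif11 and Cdk1 followed Ccna2 closely (0.94, 0.94 and 0.93), and Kifc5b (0.58) and Kifc1 (0.62), both read at low levels, came last before Pttg1. Pttg1 gave 0.08 within vehicle, -0.46 within methylparaben and 0.31 within propylparaben. The closest pairs were Top2a with Cenpf (0.92) and Prc1 with Racgap1 (0.92). For the 44 genes with introns tested, the correlation of a gene with its own introns ran from 0.26 (Kif20a) to 0.92 (Ube2c). Among 9102 genes with a mean of at least 10 that are not among the 48, those most like their mean over the 59 tumors were Pclaf (0.94), Kif15 (0.92), Tacc3 (0.91), Cenph (0.91), Knl1 (0.91), Dbf4 (0.91), Ckap2l (0.90), Smc2 (0.90), Ncapd2 (0.90) and Hells (0.89). Those most unlike were Crebrf (-0.85), Cdo1 (-0.80), Dcn (-0.78), Glul (-0.78), Apoe (-0.77), Ptk2b (-0.77), Ly6c1 (-0.77), Rora (-0.77), Ehbp1l1 (-0.76) and Cflar (-0.75), of which Dcn is a fibroblast gene and is among the fibroblast markers.

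Levels between genes compare only per length, and only if reads cover whole transcripts, which the sources used here do not state. Lengths were taken over all annotated exons of a gene, whichever transcript is expressed. Per kilobase of annotated exon, Plk1 had the highest mean normalized count over the 59 tumors (39.6), then Birc5 (32.0), Top2a (25.96), Pttg1 (15.8) and Cdk1 (15.6). Espl1 (0.844), Kifc1 (0.870), Cdc25c (0.908), Nuf2 (1.18) and Kif4 (1.32) were lowest. Before division by length, Kifc1 (2.97), Cdc25c (4.47) and the called gene Kifc5b (6.10) had the lowest mean normalized counts, so their values rest on the fewest reads. Exons of 14 of the 48 genes overlap exons of another annotated gene, among the called genes Ccna2 (with Exosc9) and Prc1 (with Rccd1), both on the other strand. Whether the counting used strand is not given in the sources used here, and without it such reads cannot be told apart.

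Other genes of mitosis from a wider list had smaller medians. Of 129 genes, 127 were tested, and 4 fell with methylparaben: Kif15 (a spindle kinesin, -0.65 ± 0.17, adjusted p = 0.0388), Ska1 (which couples kinetochores to microtubules, -0.69 ± 0.19, adjusted p = 0.0488), Ncapg (a condensin subunit, -0.59 ± 0.16, adjusted p = 0.0491) and Fbxo5 (an inhibitor of the anaphase-promoting complex, -0.60 ± 0.17, adjusted p = 0.0492). Over all genes 0.635% were called lower. The number called was 20 in edgeR, 24 in DESeq2, 0 with the 6 tissue scores as covariates and 0 to 30 with a library left out. For these runs, and for those with propylparaben, the share of all genes called is not reported here. Below 0 were 112 of 127, against 48.8% of all genes, with a median of -0.24. With propylparaben none passed in limma, edgeR called 0 and DESeq2 3, 112 of 127 were below 0 and the median was -0.20.

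By group, the kinesin, spindle and midbody genes had a median of -0.38 with methylparaben, with 2 of 23 called (Kif15 and Ska1, which was listed here although it acts at kinetochores). Condensin had -0.35 with 1 of 8 called, and the kinetochore and checkpoint genes listed apart from these -0.30 with 0 of 29 called. Centriole duplication genes had -0.29, with Sass6 at -0.31 (adjusted p = 0.0605), and mitotic entry regulators -0.21, with Cdc25b at -0.48 (adjusted p = 0.0605). Augmin had -0.19 (Haus1 -0.32, adjusted p = 0.0848) and the DREAM and B-MYB complexes -0.15 (Rbbp4 -0.15, adjusted p = 0.0952). The anaphase-promoting complex and its regulators had -0.11 with 1 of 17 called, and cohesin -0.07 with none of 11 called (Pds5a -0.23, adjusted p = 0.0793). The medians of these lists are descriptions and were not tested against each other.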

How the data were processed

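Total RNA of 59 mouse mammary tumors was sequenced. Per the submitters' processing notes, the tools were bcl2fastq 2.20.0.422, STAR 2.6.1d and HTSeq 0.10.0 with build GRCm38. Not given in the sources used here were the kit, the strand setting, the annotation release, the intron definition and the normalization tool. The authors deposited a signal per gene and, in another table, per intron: normalized counts that were whole multiples of a factor per library (100% within 1e-06 reads), from which reads were recovered. No column was left unused. Libraries of 1 group differed by more than counting noise (lowest chi-square per degree of freedom 1.99), so none was counted as repeated.

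The 48 members and all lists were chosen with earlier results of these data known. Values were fitted as log2(value + 1) with limma 3.58.1 (trend, R 4.3.3), all 59 libraries, 1 mean per group, for features with a mean of at least 1, and an adjusted p under 0.05 (Benjamini-Hochberg over all features) is a call. The same fit served introns, the gene to intron difference (both means at least 10) and the distance from the group median. Alternatives included edgeR 4.0.16 and DESeq2 1.42.0 on recovered reads, other pseudocounts, filters and scalings, 6 tissue scores, and each library left out. The procedure was tested on simulated data in which genes varied independently, so that test does not cover genes that rise and fall together. Named in full were members that passed with a single ester, 6 fixed ones (Mki67, Top2a, Ccnb1, Plk1, Aurka, Birc5), and the smallest and largest p of each role with methylparaben. Of the other mitosis genes, those that passed and the smallest p of each group were named (for kinetochore and checkpoint genes it is not reported here), and the 10 most and least correlated other genes. Genes named for a large difference, for tumor counts or for a pass against the mean of both esters were chosen after their values were seen. Depth was 1166502 to 2032789 reads on genes, and members had 1156 to 9179, which limits low members. Python 3.11.15 with pandas 2.3.3 and matplotlib 3.10.9 was used. Names and positions come from GENCODE M21.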

Additional observations from a re-analysis of the deposited data

How the results depend on the processing

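Every tested member was below 0 with methylparaben and with propylparaben under each pseudocount, filter, scaling and count test tried. With 6 tissue scores 47 of 48 were below 0. Without the 7 libraries at the low end of the first principal component, 47 were below 0 with methylparaben and 46 with propylparaben. In some fits that left out 1 library, 47 were below 0 with propylparaben. No called difference changed sign in any alternative run. For the alternative runs the share of all genes called is not given here. The number called moved. With methylparaben it was 7, and 1 with no filter, 25 in edgeR, 30 in DESeq2, 2 with array weights, 0 with only the groups compared, 0 with 6 tissue scores, and 0 to 29 over 59 fits that left out a library. With propylparaben it was 0, and 1 in edgeR, 2 in DESeq2 and 0 to 5 with a library left out (5 without vehicle tumor 5 or propylparaben tumor 1). For the mean of both it was 25, and 9 with no filter, 10 with array weights, 0 with tissue scores and 4 (without vehicle tumor 8) to 39 (without vehicle tumor 11). Between the esters it stayed 0. Introns with methylparaben gave 0, and 1 at a mean of at least 10, 1 with median-of-ratios scaling, 3 in edgeR and 0 to 2 with a library left out, and with propylparaben 0 to 1. Spread gave 0 in every such fit. Other mitosis genes with methylparaben gave 4, and 20 in edgeR, 24 in DESeq2, 0 with tissue scores and 0 to 30 with a library left out, and with propylparaben 3 in DESeq2 and 0 to 8. Chosen after seeing the data, leaving out the 5 libraries of low scaling factor gave 0 with methylparaben and 8 for the mean of both, leaving out the 7 lowest on the first principal component gave 0 and 0, and the percent of reads outside features as covariate gave 10 with methylparaben. The cause was not tested. No paired analysis was possible because nothing in the labels ties a tumor of one group to a tumor of another, and replicate numbers follow the order of records. DESeq2 gave no adjusted p for 1 member.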
